A study of Mus musculus with 8 samples.

Results

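The genes considered are 10 of the 55414 in the counts table and centre on the target of diphtheria toxin. They are Eef2, which encodes that target, Eef2k, which encodes a kinase of it, the diphthamide synthesis genes Dph1, Dph2, Dph3, Dph5, Dph6, Dph7 and Dnajc24, and Hbegf, which encodes the toxin's receptor in human cells, each taken as the row whose Ensembl ID carries that symbol in GENCODE. They were measured by RNA-seq in Paneth cells sorted by FACS from mouse small intestine. Of 8 libraries, 4 (TG, genotype DT TG) were from transgenic animals whose Paneth cells express the toxin and 4 (WT) from wild type animals. The labels give neither the promoter of the transgene nor the age or strain of these mice, and the study describes its sorts as coming from C57BL/6J mice. The series title speaks of cells after depletion of mature Paneth cells, and the table, which holds mouse gene IDs, does not show whether the sorted TG cells had made the toxin.

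Diphtheria toxin stops protein synthesis at a single residue. Its catalytic fragment attaches ADP-ribose to diphthamide, a modified histidine found in eukaryotic elongation factor 2 (eEF2), the GTPase that moves the ribosome along the mRNA. Dph1 and Dph2 start the modification with electrons passed on by Dph3 and with help from Dnajc24 (also called Dph4), Dph5 methylates the intermediate, Dph7 removes a methyl group, and Dph6 performs the final amidation. Cells that cannot make diphthamide resist the toxin. In human cells the toxin enters by binding the membrane precursor of HB-EGF, the product of Hbegf, whereas the mouse protein binds it poorly, and toxin made within a cell needs no receptor.

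The coding sequence around that histidine is shown because it is the point of attack. Mouse Eef2 (ENSMUSG00000034994, GRCm39 chromosome 10, 81012465 to 81018348, plus strand) encodes 858 residues, and the modified histidine is residue 715, counted from the initiator methionine. Its codon, in capitals, lies in exon 12 of 14 of the canonical GENCODE transcript, at 81017137 to 81017139, with 10 codons (711 to 720) printed 5′ to 3′ from 81017125 to 81017154:

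Eef2 codons 711 to 720: gctgatgccattCACcggggaggtggccag

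Libraries of the TG group held 13107397 to 16218434 counts and those of the WT group 13601510 to 15018711. Levels are given as CPM, the counts scaled to the size of the library. Of 10 Paneth cell markers, 4 were called lower in TG and none higher, with a summed level of 372000 to 456200 CPM in TG and 354000 to 537600 CPM in WT. The 10 immune markers summed to at most 2.26 CPM, with Ighm, Csf1r and Nkg7 at 0. Of 14 enterocyte markers, 7 were called higher in TG and none lower, and the summed level was 962 to 1162 CPM in TG against 814 to 945 CPM in WT. Of the other lists, 1 of 8 goblet cell and 1 of 4 tested enteroendocrine markers were called lower, 1 of 5 stem cell markers was called higher and 1 lower, and none of 4 tested tuft cell markers was called. The 7 listed enteroendocrine markers summed to 3.50 to 13.04 CPM in TG and 8.26 to 43.9 CPM in WT. Mitochondrial genes took 1.15 to 1.53% of counts in TG and 0.566 to 1.10% in WT. Replicates 1 and 2 of both groups had 0 counts of 4 Y-linked genes, and replicates 3 and 4 of both groups had 897 to 1564. The study describes its Paneth cell samples, taken over many series, as sorts from individual mice, while the labels of these libraries name no animal.

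Set against WT, the TG libraries show whether sorted cells of toxin-expressing mice differed in transcripts of the toxin's target or of the enzymes that make it sensitive. Dph3 was lower in TG, by 20% (fold 0.798), and it was the only gene of the 10 to pass the test. Eef2 differed by less than the spread between libraries, with a fold of 0.968 and a 95% interval of 0.825 to 1.14. Dph6 and Dph1 had folds of 0.788 and 0.762 without passing, and the remaining 6 genes had folds of 0.716 to 1.09. CPM values are scaled by TMM factors unless a level per length is named, and calls are by the quasi-likelihood test of edgeR at a Benjamini-Hochberg adjusted p below 0.05 over all 11929 genes tested. All 10 genes were among those tested. The 1 call among 10 genes stands beside a background of 17.9% of all tested genes called. At an unadjusted p below 0.05 there were 2 of the 10 (Dph3 and Dph6), against 33.1% of all tested genes. The median log2 fold change was -0.14 over the 10 genes and 0.01 over all tested genes, and the median absolute value was 0.14 against 0.21. In bulk RNA, fewer cells with a transcript and less of it in each cell cannot be told apart.

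**Figure D1:**
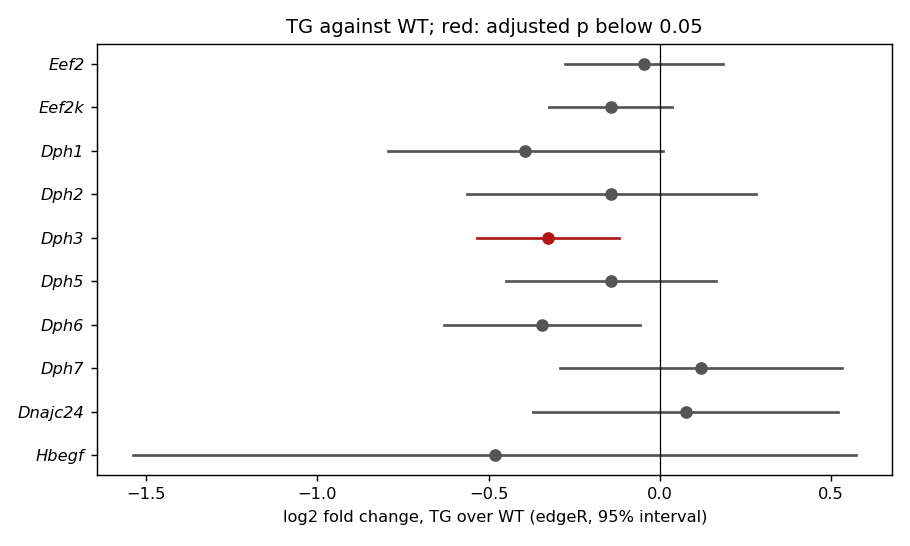
Log2 fold change of TG over WT for each of the 10 genes (points) with its 95% interval from edgeR (lines), with the called gene in red. The intervals of 8 genes cross 0, that of Dph6 (-0.63 to -0.06) does not although its adjusted p is 0.0882, and Dph3 (-0.53 to -0.12) is the only call.

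Eef2 was abundant in every library. Its level was 1672, 1808, 1697 and 1780 CPM in TG replicates 1 to 4 and 1945, 1631, 1739 and 1874 CPM in WT replicates 1 to 4. The WT libraries held both the highest and the lowest value, so that the TG range lay inside the WT range. The log2 fold change was -0.05 ± 0.11 (SE, edgeR adjusted p 0.794). Counts were between 23418 and 30059 per library, so counting error was small beside the spread between libraries. Eef2 took 0.171% (TG replicate 4, 95% Wilson interval 0.169 to 0.173%) to 0.196% (TG replicate 2, 0.194 to 0.199%) of the counts in TG and 0.164% (WT replicate 1, 0.162 to 0.166%) to 0.191% (WT replicate 3, 0.189 to 0.193%) in WT, and ranked 25th to 29th among all genes. These unscaled shares averaged 0.181 ± 0.0118% in TG against 0.172 ± 0.0126% in WT (SD, n = 4 each), the opposite order to the scaled means of 1739 ± 65.5 and 1797 ± 139.8 CPM (SD, n = 4 each). Scaled by total counts alone, Eef2 had a log2 fold change of 0.074, where the median of all tested genes was 0.12, so that Eef2 lay 0.05 below that median. A processed pseudogene, Eef2-ps2, had 3 to 10 counts per library.

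**Figure D2:**
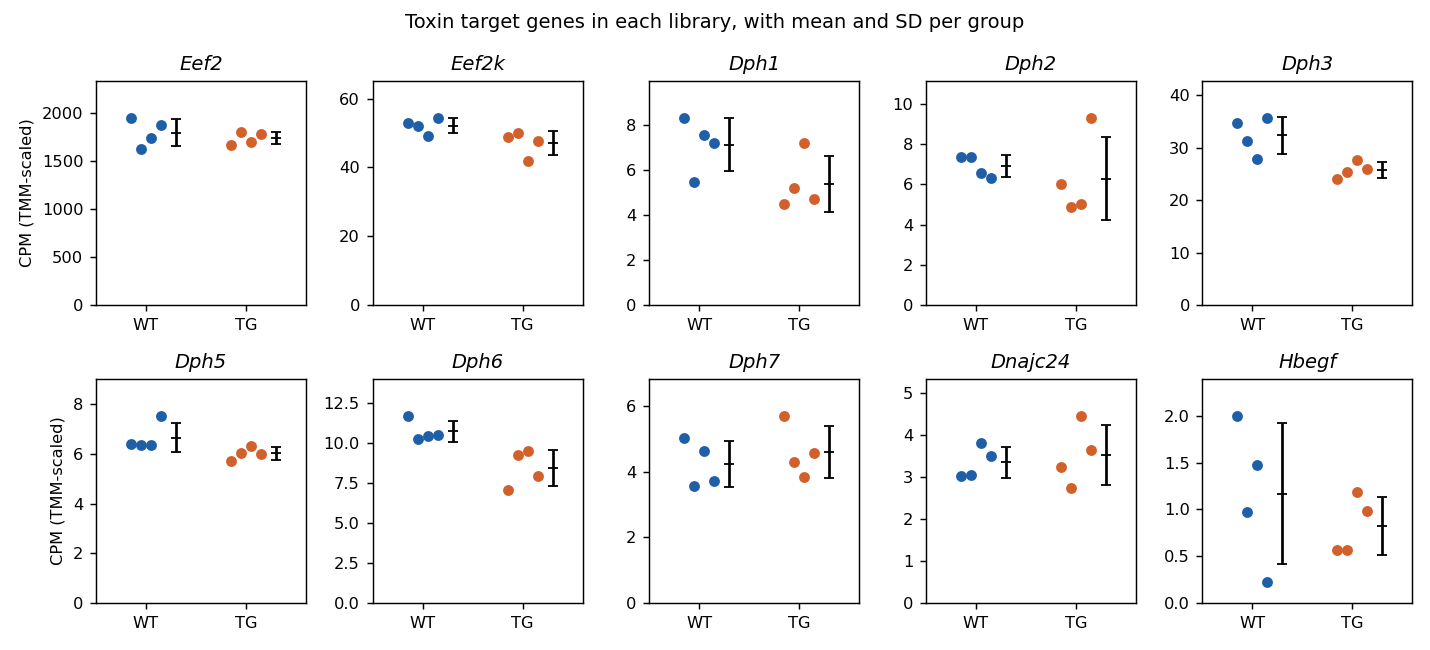
CPM (TMM-scaled, linear axes from 0) of the 10 genes in the 4 WT (blue) and 4 TG (orange) libraries, replicates 1 to 4 from left to right, with the mean and SD of each group in black. The groups do not overlap for Dph3, Dph5 and Dph6, and Hbegf never exceeds 2.00 CPM.

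Eef2k encodes the calcium-dependent kinase that phosphorylates eEF2 and slows elongation. It had 48.7, 50.03, 42.0 and 47.8 CPM in TG replicates 1 to 4 and 52.9, 51.95, 49.2 and 54.25 CPM in WT replicates 1 to 4. The groups overlapped only through TG replicate 2, which lay above WT replicate 3. The log2 fold change was -0.14 ± 0.08 (SE), with an interval of -0.32 to 0.04 and an edgeR adjusted p of 0.247.

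Dph3, a small zinc protein that donates electrons to the Dph1 and Dph2 enzyme, was the most abundant of the 7 diphthamide synthesis genes by counts. It lies on GRCm39 chromosome 14, 31800910 to 31807686, minus strand (ENSMUSG00000021905). It had 24.1, 25.4, 27.6 and 26.0 CPM in TG replicates 1 to 4 and 34.7, 31.2, 27.9 and 35.6 CPM in WT replicates 1 to 4. Every TG library lay below every WT library, but WT replicate 3 exceeded TG replicate 3 by little. The means were 25.8 ± 1.46 CPM in TG against 32.3 ± 3.51 CPM in WT (SD, n = 4 each), with a log2 fold change of -0.33 ± 0.10 (SE) and an edgeR adjusted p of 0.0327. The direction held under all 21 alternative settings, and the call held in 12 of them. It was lost on leaving out TG replicate 1, 2 or 4 or WT replicate 1 or 4, with edgeR adjusted p of 0.111, 0.0865, 0.0557, 0.0619 and 0.0915. With total counts the log2 fold change was -0.20 (edgeR adjusted p 0.292), which lay 0.32 below the median of all tested genes under that scaling. Within the libraries without Y-linked counts it was -0.41 (edgeR adjusted p 0.0961), and within those with them -0.24 (0.427). The enterocyte marker sum and the mitochondrial share, whose ranges did not overlap between the groups, and the 4 of 10 Paneth cell markers called lower in TG moved with this difference, and their part in it was not tested.

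**Figure D3:**
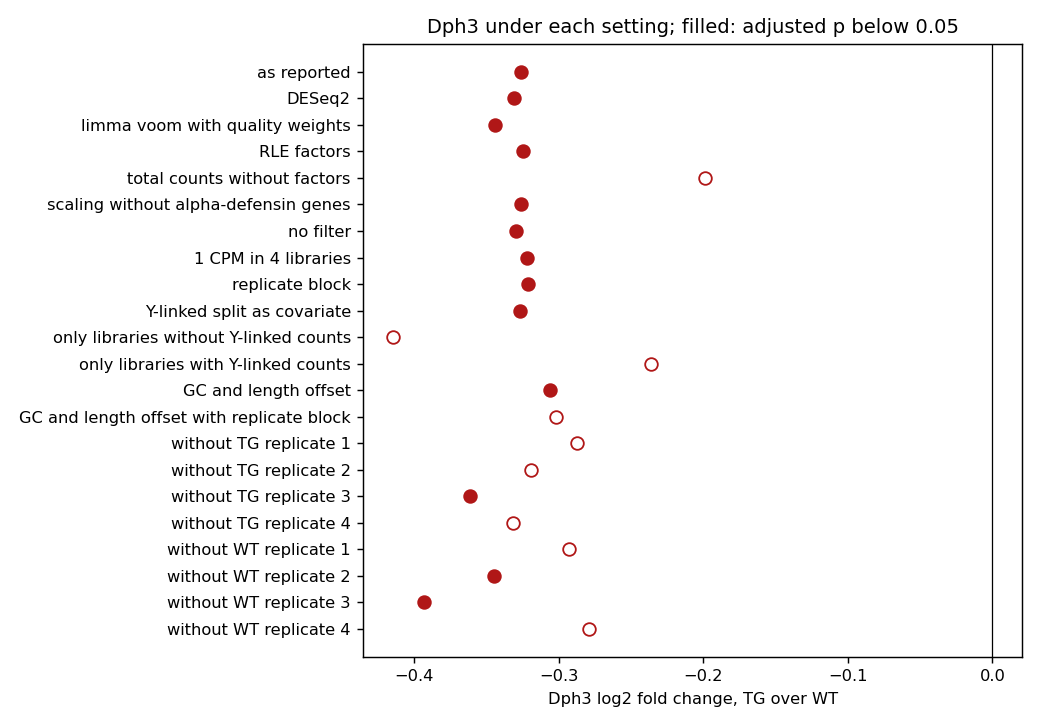
Log2 fold change of Dph3 (TG over WT) as reported and under 21 alternative settings, filled where the adjusted p is below 0.05. All points lie between -0.41 and -0.20, and 9 of the alternatives are open.

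Dph6, which amidates the intermediate to diphthamide, had a difference of like size that did not pass. It had 7.07, 9.22, 9.48 and 7.91 CPM in TG replicates 1 to 4 and 11.7, 10.2, 10.4 and 10.5 CPM in WT replicates 1 to 4, with counts of 104 to 168. The TG libraries all lay below the WT libraries. The log2 fold change was -0.34 ± 0.13 (SE, edgeR adjusted p 0.0882), and no alternative called it (adjusted p 0.0691 to 0.519).

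Dph1 and Dph2 form the iron-sulfur enzyme of the first step. Dph1 had 4.505, 5.21, 7.225 and 4.71 CPM in TG replicates 1 to 4 and 8.31, 5.501, 7.56 and 7.22 CPM in WT replicates 1 to 4. TG replicate 3 stood among the WT values and WT replicate 2 near the TG values, so the groups overlapped. The log2 fold change was -0.39 ± 0.19 (SE), with an interval of -0.79 to 0.01 and an edgeR adjusted p of 0.159. Dph2 had 6.01, 4.86, 5.02 and 9.28 CPM in TG replicates 1 to 4, where replicate 4 was the highest of all 8 libraries, and 7.35, 7.38, 6.56 and 6.33 CPM in WT replicates 1 to 4. Its log2 fold change was -0.14 ± 0.20 (SE, edgeR adjusted p 0.651), and neither partner differed detectably at this depth of 62 to 128 counts per library.

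The other 3 synthesis genes were low in all libraries. Dph5, the methyltransferase, had 5.69 to 6.32 CPM in TG and 6.34 to 7.52 CPM in WT. These ranges did not overlap but nearly touched, and the log2 fold change was -0.14 ± 0.14 (SE, edgeR adjusted p 0.517). Dph7, the methylesterase, had 3.84 to 5.69 CPM in TG and 3.55 to 5.04 CPM in WT, with a log2 fold change of 0.12 ± 0.19 (SE). Dnajc24, the J-domain partner of the first step, had 2.74 to 4.46 CPM in TG and 3.04 to 3.81 CPM in WT, with a log2 fold change of 0.08 ± 0.21 (SE). The groups overlapped for these last genes, and their edgeR adjusted p were 0.700 and 0.832. The ranges of the groups thus did not overlap for 3 of the 10 genes (Dph3, Dph5 and Dph6, each lower in TG), beside 22.0% of all tested genes.

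Summed over the 7 synthesis genes, the level was 60.03 ± 3.59 CPM in TG against 71.3 ± 4.79 CPM in WT (SD, n = 4 each). The libraries of TG lay between 56.3 and 64.0 CPM and those of WT between 67.3 and 76.5 CPM. This separation rests on the TMM factors, since the ranges of the groups overlapped when the summed counts were scaled by total counts alone. Dph3 made up 44.1% of this sum on average. Without Dph3 the ranges met, at 32.2 to 36.4 CPM in TG and 36.1 to 41.8 CPM in WT.

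Several of these loci share exons with other genes, and no source used here gives the strand setting of the counting. Of the exon bases of Dph1, 49.8% are also exons of Ovca2 on the same strand, so that reads there cannot be told apart and the Dph1 values are uncertain. Ovca2 had a log2 fold change of -0.34 ± 0.15 (SE), close to that of Dph1, with an edgeR adjusted p of 0.138. On the opposite strand, Slc30a7 shares 13.6% of the exon bases of Dph5, Mrpl41 shares 23.6% of those of Dph7 and Immp1l shares 7.60% of those of Dnajc24. Dph3 shares 13.8% of its exon bases with the long noncoding RNA gene Gm63221 and 4.81% with Oxnad1, both on the opposite strand, and Hbegf shares 16.3% with Gm41698. No value is given here for Gm63221 or Gm41698. Slc30a7, a zinc transporter with up to 1572 counts per library against at most 112 for Dph5, was called lower in TG (log2 fold change -0.38 ± 0.10, SE, edgeR adjusted p 0.0158). Mrpl41, Immp1l and Oxnad1 were not called (-0.29, -0.25 and -0.22, edgeR adjusted p 0.257, 0.343 and 0.322). A long noncoding RNA that shares 648 exon bases with Dph1 on the opposite strand, 1700016P03Rik, had at most 1 count in a library. The Dph3b-ps pseudogene had 0 counts.

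Hbegf (GRCm39 chromosome 18, 36637980 to 36649677, minus strand) was the scarcest of the 10 genes by counts, with 3 to 25 per library and 115 in all. It had 0.563, 0.563, 1.19 and 0.988 CPM in TG replicates 1 to 4 and 2.00, 0.9749, 1.47 and 0.223 CPM in WT replicates 1 to 4. The WT libraries held both the highest and the lowest value. The log2 fold change was -0.48 ± 0.49 (SE, edgeR adjusted p 0.523), with an interval from 0.345-fold to 1.49-fold, so that no difference was detectable at this depth.

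Counts divided by exon length were used to order the genes, expressed as TPM. In WT, Eef2 had 476.4 ± 69.02 TPM, Eef2k 6.42 ± 1.03 and Dph3 4.92 ± 0.487 (SD, n = 4 each). Eef2k thus stood at 1.35% of the level of Eef2 and Dph3 at 1.04%. Dph2 (2.26 TPM), Dph1 (1.36), Dph6 (1.12), Dph7 (0.671), Dph5 (0.399), Hbegf (0.234) and Dnajc24 (0.160) followed. The ranges over the WT libraries overlapped between the neighbours Eef2k and Dph3, Dph1 and Dph6, Dph5 and Hbegf, and Hbegf and Dnajc24. Within each WT library Eef2k nevertheless lay above Dph3. As shares of Eef2 in the same library they stood at 1.35 ± 0.0917% and 1.04 ± 0.0819% (SD, n = 4 each). The other overlapping pairs are not ordered beyond their spread. In TG the order was the same except that Dnajc24 (0.186 TPM) and Hbegf (0.185) changed places within their spread. The order depends on the length used: with the canonical transcript length Dph6 rose from 0.235% to 0.674% of the level of Eef2 in WT and moved ahead of Dph2 and Dph1.

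**Figure D4:**
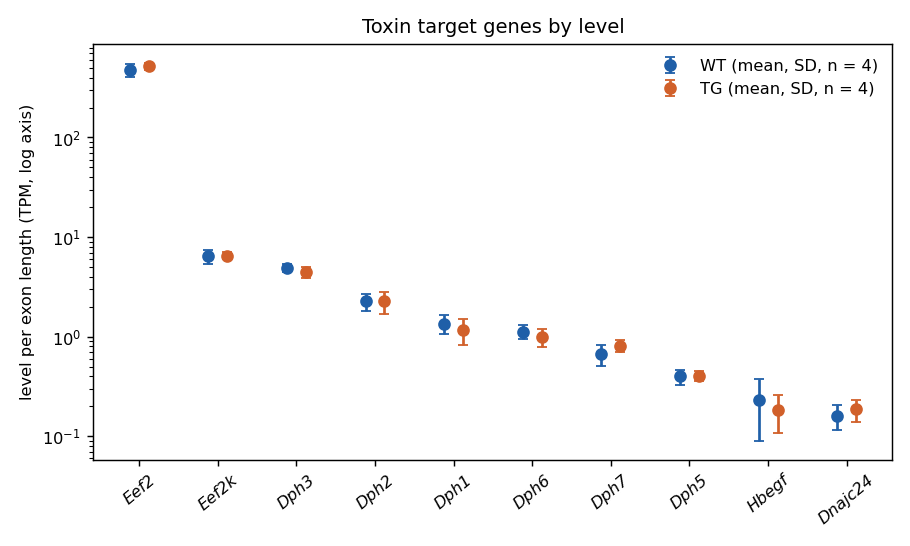
Level per exon length (TPM, log axis) of the 10 genes in WT (blue) and TG (orange), as mean and SD of 4 libraries. Eef2 at 476.4 TPM in WT lies far above Eef2k at 6.42, and the synthesis genes run from 4.92 (Dph3) to 0.160 (Dnajc24).

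Related genes were taken from 4 lists and described by their counts beside the 17.9% of all tested genes called. Of 11 elongation factor genes tested, 2 were called, both lower in TG. These were Eif5a, whose product carries hypusine (311.8 ± 34.2 against 425.9 ± 27.99 CPM, SD, n = 4 each, log2 fold change -0.45), and Eef1e1, a scaffold of the tRNA synthetase complex (-0.68). Both remained called without any 1 library, Eif5a lost its call with total counts (-0.33, edgeR adjusted p 0.059), and neither was called within the libraries with Y-linked counts. Eef1a1, which brings aminoacyl-tRNA to the ribosome, had 2366 ± 106.6 CPM in TG against 2619 ± 260.3 CPM in WT (SD, n = 4 each) and was not called (-0.15, edgeR adjusted p 0.408). The list count was 4 without WT replicate 2, and its median log2 fold change was -0.16.

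Of 20 genes for eEF2 methylation and for regulators of eEF2 and its kinase, 1 was called higher and 3 lower in TG, with a median log2 fold change of -0.03. Among the lower genes were Rps6ka1, a kinase that phosphorylates eEF2 kinase (-0.32), and Ppp2cb, a catalytic subunit of phosphatase 2A (-0.33), and the higher gene was Cdk5 (0.38). The list count was 0 without TG replicate 1 or TG replicate 2 and 2 without TG replicate 4 or WT replicate 1. Rps6ka1 was called in 5, Ppp2cb in 2 and Cdk5 in 1 of the 8 fits that left out a library. None of them was called with total counts or within the libraries with Y-linked counts. Eef2kmt, which methylates eEF2, had a log2 fold change of -0.13 (edgeR adjusted p 0.435), and Mtor and Prkaa1 had 0.08 and -0.02, with edgeR adjusted p of 0.545 and 0.885.

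Of 20 genes for binding, uptake and membrane passage of the toxin, 6 were called, all lower in TG, which is 30% of those tested, and the median log2 fold change was -0.24. They were Txnrd1 and Txn1 of the thioredoxin system, which reduces the disulfide that joins the toxin's fragments (-0.38 and -0.37), the coatomer genes Copb1, Copb2 and Copg1 (-0.32, -0.37 and -0.32), and the chaperonin gene Cct2 (-0.26). Txnrd1 had 134.1, 134.6, 148.9 and 153.3 CPM in TG replicates 1 to 4 and 186.2, 189.9, 184.8 and 184.4 CPM in WT replicates 1 to 4. The groups stood well apart, and it was the only gene of the 6 called in all 8 fits that left out a library. Txn1 and Copb2 were called in 5 of these fits, Copg1 in 4, Copb1 in 3 and Cct2 in 1, and Cct2 was called in 4 of the 13 other settings. The list count was 1 without TG replicate 1, TG replicate 2 or WT replicate 4, and 3 without TG replicate 3. With total counts none of the 6 was called by edgeR, with log2 fold changes of -0.27 to -0.15. Cd9, a tetraspanin that aids toxin binding to HB-EGF, had 84.2 ± 4.18 CPM in TG against 103.9 ± 17.4 CPM in WT (SD, n = 4 each) and was not called (edgeR adjusted p 0.0676). Furin, the protease that cleaves the toxin, had 53.2 and 53.5 CPM in TG and WT.

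The EGF receptor family and its ligands, to which HB-EGF belongs, held the gene with the largest called change of the 4 lists, Egf. Of 13 genes tested, 3 were called higher and 2 called lower in TG, 38.5% of those tested. Egf rose, with 52.9, 54.5, 38.9 and 49.1 CPM in TG replicates 1 to 4 and 29.4, 25.6, 24.6 and 34.6 CPM in WT replicates 1 to 4, a log2 fold change of 0.78 ± 0.13 (SE). The receptor genes Erbb3 (0.62 ± 0.10, SE) and Erbb2 (0.52 ± 0.11, SE) rose as well. The groups did not overlap for any called gene of this list, higher or lower, beside 22.0% of all tested genes. The called cell type markers, among them 7 of 14 enterocyte markers (higher) and 4 of 10 Paneth cell markers (lower), and the mitochondrial share moved with these genes and with the called genes of the other lists, and their part was not tested. Egf, Erbb3 and Erbb2 were called in all 8 fits that left out a library and with total counts, and were not called within the libraries with Y-linked counts alone. The lower genes were the membrane proteases Adam9 (-0.32) and Adam10 (-0.29), which were called in 2 and 3 of those 8 fits. The list count was 3 on leaving out TG replicate 1, 2 or 4 or WT replicate 4. Egfr, the receptor that binds HB-EGF, had a log2 fold change of -0.29 (edgeR adjusted p 0.0895), and Adam17, a shedding protease, had 0.01 (0.944). Erbb4, Nrg1 and Adam12 had 0 CPM in the group means of both genotypes.

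**Figure D5:**
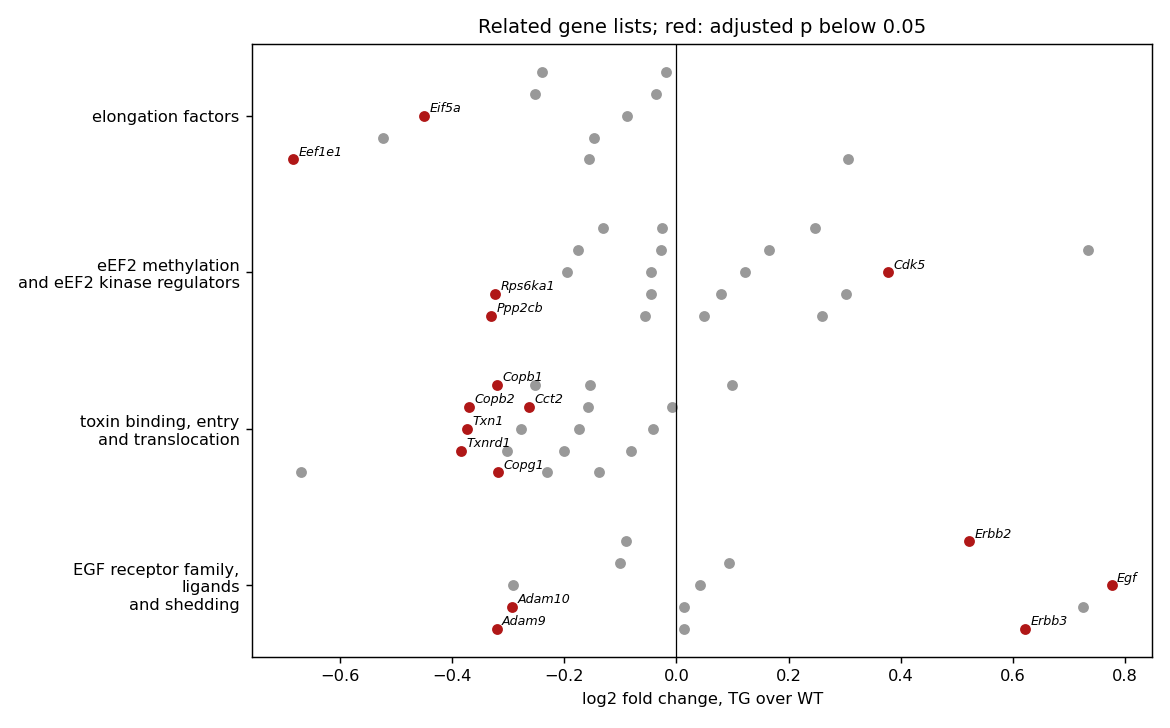
Log2 fold change of TG over WT (horizontal axis) for tested genes of 4 related lists (rows, with points spread vertically for legibility), called genes in red and named. The 6 called genes of the toxin entry list all lie below 0, whereas Egf, Erbb3 and Erbb2 lie between 0.52 and 0.78.

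The tested genes most like Eef2 were sought by Pearson's r of log2 CPM over the 8 libraries after the group means were subtracted, among 8128 genes with a mean log2 CPM of at least 3. The highest were Eef1a1 (r = 0.99), Tmco1 (0.98), Ldaf1 (0.97), Pcbp2 (0.96) and Uap1l1 (0.96). These are descriptions over 8 libraries that share their scaling, and picking the highest of 8128 values yields a high r by itself. Among them, Uap1l1 was called higher in TG (log2 fold change 0.54, edgeR adjusted p 0.037). In an edgeR fit with an interaction of group and the presence of Y-linked counts, none of the 10 genes was called and none had an unadjusted p below 0.05. DESeq2 called none of the 4 genes for which it gave an adjusted p, and gave NA for the other 6. Hbegf had the largest interaction term, from -1.37 in the libraries without to 0.34 in those with Y-linked counts, with an edgeR adjusted p of 0.898.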

How the data were processed

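RNA had been isolated from the sorted cells with a column kit, and libraries were made with a stranded, poly(A)-selecting kit. The authors deposited raw counts per Ensembl gene and library. Their processing notes name FastQC 0.12.0, STAR 2.7.0a, DESeq2 and the mm39 build. For these counts, the sources used here name no counting tool, strand setting or annotation. The study names a GENCODE release for its own mapping over many series, without saying whether the deposited counts used it. Symbols, positions and exon lengths came from GENCODE M39 (GRCm39), which matched 54749 of 55414 IDs. The genes and lists were chosen with earlier results of these data known.

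Counts were tested in R 4.3.3 with edgeR 4.0.16 (TMM, filterByExpr with a minimum count of 10, robust quasi-likelihood fit, group as the only term, all 8 libraries), which was tested on simulated data. The standard error is the fitted coefficient over the square root of F, and intervals are at 95%. All 10 genes, the called list genes and the 5 genes most like Eef2 were named, except 1 called list gene, which is counted but neither reported nor drawn here. TPM were computed from counts per exon length. Wilson intervals cover counting error only. No replicates were duplicates, with a chi-square per degree of freedom of at least 5.20 between them. Alternatives used DESeq2 1.42.0, limma 3.58.1 (voom), other scalings, filters, offsets and subsets of libraries.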

Additional observations from a re-analysis of the deposited data

Results flagged for a closer look

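Of 20 groups of 4 libraries (10 genes in TG and in WT), 1 held a library far from the others, about the number that chance gives (about 1 in 20). For Dph5, WT replicate 4 stood at 7.52 CPM while the remaining WT libraries lay between 6.34 and 6.40 CPM. The distance to the nearest of them was 0.951 of the whole WT range.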

How the results depend on the processing

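The canonical transcript length was chosen after the data were seen, and the other 21 settings per gene were planned. Of the 10 genes, 1 (Dph3) was called, and 0 were called by edgeR with total counts, with only the libraries without or only those with Y-linked counts, or with the replicate block added to an offset for GC and length (Dph3 adjusted p 0.0539). At an unadjusted p below 0.05 there were 0, 2, 0 and 3 of the 10. Leaving out 1 library gave 0 to 1. TG and WT libraries of the same replicate number had r of 0.08, 0.07, 0.29 and 0.23 between their deviations from group means. Of 8 libraries, 5 were closest to their own number, and whether the numbers mark pairs was not tested. The replicate block called 1 of the 10 genes. DESeq2 also called 1. The direction turned for Eef2 with total counts (0.074), for Dph2 with only the libraries with Y-linked counts (0.14), for Hbegf there (0.34) and with limma voom (0.075), and for Dnajc24 with the offset (-0.013), the offset with the block (-0.029), the libraries lacking Y-linked counts (-0.024) and on leaving out 1 library (-0.064 without TG replicate 3 to 0.18 without TG replicate 2). None of these was called. Hbegf was not tested with a filter of 1 CPM in 4 libraries. The causes of these changes were not tested, except that subsets hold fewer libraries.

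Elongation factor genes called, 2 in number, became 4 with DESeq2, without a filter and with the offset and block, 5 with limma voom, 1 with total counts and 0 with only the libraries with Y-linked counts, and leaving out 1 library gave 2 to 4. The eEF2 regulators, 4 in number, became 1, 2 and 0 with total counts and the libraries without and with Y-linked counts, and 0 to 3 with 1 library left out. The entry genes called, 6 in number, became 0, 3 and 1, and 1 to 8, and the genes behind these counts changed. None of the 6 was called within the libraries with Y-linked counts. The EGF family, 5 in number, became 3 with total counts and 0 with the libraries with Y-linked counts, and 3 to 5. All genes called, 2136 in number, became 1049 with total counts, 1138 and 217 in the libraries without and with Y-linked counts, and 1083 and 1055 without TG replicate 1 and TG replicate 2.

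The level as a share of Eef2 in WT moved with the longest and the canonical transcript length, respectively, from 1.04% to 1.28% and 1.19% for Dph3, from 0.0835% to 0.217% and 0.201% for Dph5, from 0.235% to 0.663% and 0.674% for Dph6, from 0.140% to 0.204% and 0.218% for Dph7, and from 0.0330% to 0.0476% and 0.0441% for Dnajc24. It moved to 1.44% for Eef2k with the longest transcript, and to 0.319% for Dph1 and 0.0840% for Hbegf with the canonical transcript.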
